A study of Mus musculus with 24 samples.

Results

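The Clec4 lectins described here are 9 neighbouring genes of mouse chromosome 6, Clec4a1, Clec4a2, Clec4a3, Clec4a4, Clec4b1, Clec4b2, Clec4d, Clec4e and Clec4n, out of 19938 genes that had a probe set with a single gene symbol. They were chosen by name, as the Clec4 cluster that holds the DCIR2 gene, and each was read from its only such probe set. Expression was measured on 24 arrays of conventional dendritic cells (cDC), antigen-presenting cells, sorted from the spleens of female mice aged 8 to 10 weeks. Donors were NOD mice, which spontaneously develop autoimmune diabetes, and the control strain C57BL/6 (B6), given either CpG-A, an oligonucleotide ligand of Toll-like receptor 9, or PBS. After 12 h the spleens were digested with collagenase and CD11c+ cells were sorted into CD8+ cDC and CD11b+ cDC. Subset, strain and injection gave 8 groups of 3 arrays: CD8+ or CD11b+ cDC, from B6 or NOD mice, after PBS or CpG-A. No allele or transgene is named for any group, and all groups share the CD11c+ gate, the digestion and the amplification of 5 ng of total RNA into labelled cDNA. The labels do not say whether the 3 arrays of a group came from separate mice or pools, so a p-value measures only the spread between these arrays.

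All 9 genes encode C-type lectin receptors, membrane proteins with an extracellular sugar-binding type fold, and they signal in opposite ways. DCIR (Clec4a2) and DCIR2 (Clec4a4) carry an inhibitory tyrosine motif in their cytoplasmic tail that recruits phosphatases, whereas DCAR (Clec4b1), DCAR1 (Clec4b2), Dectin-2 (Clec4n), MCL (Clec4d) and Mincle (Clec4e) lead to the FcR gamma chain, the kinase Syk and the adaptor Card9. DCIR2 is a known surface marker of CD11b+ cDC in the mouse spleen; Dectin-2 binds mannans of fungi, and Mincle and MCL sense mycobacterial glycolipid. In the RefSeq gene order the cluster runs Clec4a1, Clec4a3, Clec4a4, Clec4b1, Clec4a2, Clec4b2, Clec4n, Clec4d and Clec4e, with Necap1 before it and Vmn2r19 after it.

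Upstream sequences from RefSeq (GRCm38.p6) were matched by symbol for 7 of the 9 genes in 8 windows of 250 bases ending at an annotated start; Clec4a4 and Clec4n were not matched. The 4 windows printed belong to a pair of paralogues with opposite subset patterns, Clec4b1 and Clec4b2, and to Clec4a1 and Clec4a3, whose patterns over the groups were nearly the same. Capitals mark GAGGAA on either strand, the core letters of the motif bound by PU.1, a transcription factor of myeloid cells; TTCCTC is the same core on the other strand. The windows are Clec4b1 chr6:123049712-123049961, Clec4b2 chr6:123172773-123173022, Clec4a1 chr6:122921598-122921847 and, from the second of its annotated starts, Clec4a3 chr6:122952394-122952643, all on the + strand and written 5′ to 3′.
Clec4b1: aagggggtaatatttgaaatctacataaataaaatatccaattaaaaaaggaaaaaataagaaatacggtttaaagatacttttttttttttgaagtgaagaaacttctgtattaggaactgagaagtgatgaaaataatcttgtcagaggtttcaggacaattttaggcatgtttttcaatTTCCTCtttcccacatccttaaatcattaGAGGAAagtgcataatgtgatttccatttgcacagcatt
Clec4b2: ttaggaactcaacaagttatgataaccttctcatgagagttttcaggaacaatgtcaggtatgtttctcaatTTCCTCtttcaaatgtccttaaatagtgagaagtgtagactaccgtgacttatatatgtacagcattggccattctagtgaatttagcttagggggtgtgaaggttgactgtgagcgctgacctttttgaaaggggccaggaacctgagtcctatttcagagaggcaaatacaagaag
Clec4a1: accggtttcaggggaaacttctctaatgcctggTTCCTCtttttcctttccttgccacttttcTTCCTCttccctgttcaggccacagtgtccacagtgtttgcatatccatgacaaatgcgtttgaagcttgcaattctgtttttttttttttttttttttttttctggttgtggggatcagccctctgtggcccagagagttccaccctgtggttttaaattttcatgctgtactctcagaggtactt
Clec4a3: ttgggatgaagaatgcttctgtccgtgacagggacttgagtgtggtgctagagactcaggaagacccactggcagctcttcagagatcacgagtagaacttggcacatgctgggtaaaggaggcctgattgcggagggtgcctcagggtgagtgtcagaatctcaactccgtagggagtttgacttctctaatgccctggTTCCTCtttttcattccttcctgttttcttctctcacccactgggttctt

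The best local alignment of the Clec4b1 and Clec4b2 windows held 146 columns, 108 of them identical (74.0%), but it joined bases -138 to -1 of Clec4b1 to bases -250 to -112 of Clec4b2, counted back from each annotated start. The matched core thus began at -68 in Clec4b1 and at -178 in Clec4b2, and Clec4b1 had a further core at -39. Clec4a1 and Clec4a3 shared 48 of 55 aligned columns (87.3%) around a core that began at -217 in Clec4a1 and at -50 in Clec4a3. The PU.1 core was in 6 of the 8 windows, and in 23.3% of 32851 RefSeq windows of the same length. The 8 windows are not independent of one another. Those of Clec4a3 overlap, and the matched cores of both pairs above lie in aligned sequence. An interferon-response core (GAAA, any 2 bases and GAAA, either strand) was in 1 window, that of Clec4b1 at -75, overlapping the PU.1 core at -68, and in 2.98% of all windows. A kappa-B core (GGGA, any 4 bases and CC) was in the Clec4a1 window at -75 and in 17.6% of all windows; a C/EBP core (TTGCNNAA) was in the Clec4e window at -66 and in 9.56%; and an AP-1 core (TGANTCA) was in none of the 8, against 6.75% of all windows. These matches describe letters in the windows, not bound sites.

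The deposited values are log2 expression values between 1.92 and 14.1, with array medians of 5.79 to 5.87, and values under the median lay towards the low end of each array. A gene was tested if its value exceeded the array's median on at least 3 of the 24 arrays; 11228 genes and 7 of the 9 lectins passed, whereas Clec4d and Clec4e did not. Differences are log2 differences ± the standard error (SE) of a limma fit over all 8 groups, with 3 arrays in each group. The words "rose" and "fell" are kept for values whose Benjamini-Hochberg adjusted p over all tested genes was under 0.05. Arrays of 1 group correlated at 0.941 to 0.989 over the genes. The sorted subsets carried their markers under PBS: Cd8a was higher in CD8+ cDC by 4.47 in B6 and 5.62 in NOD, and Itgam, the gene of CD11b, fell by 3.94 and 3.92 from CD11b+ to CD8+ cDC. After CpG in CD11b+ cDC Itgam fell by 1.99 in B6 and 1.41 in NOD, and Itgax, the gene of CD11c, fell by 1.29 in B6 and had a difference of -0.33 in NOD (adjusted p = 0.253). Cd8a rose in the same CD11b+ arrays by 1.42 in B6 and 1.12 in NOD, and in CD11b+ cDC it was lower in NOD than in B6, with differences of -1.52 under PBS and -1.81 after CpG. Arrays of sorted populations do not separate a smaller share of expressing cells from less RNA per cell. The probe sets of such closely related genes may share sequence, so their assignment is uncertain. Sequence differences of NOD mice within a probe can change its signal, and their part was not tested.

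Under PBS, 6 lectins belonged to the CD11b+ side of the sort and 1 to the CD8+ side, in both strains. Of the 7 tested lectins all were called between the subsets in each strain, where 21.7% of genes were called in B6 and 21.8% in NOD (12.2% and 11.2% called lower in CD8+ cDC). The 6 that were lower in CD8+ than in CD11b+ cDC were Clec4a1, Clec4a2, Clec4a3, Clec4a4, Clec4b1 and Clec4n, and Clec4b2 alone of the 7 was higher there. Clec4a2, Clec4a4 and Clec4b1 were above the array median only on CD11b+ arrays and Clec4b2 only on CD8+ arrays under PBS. Clec4n was above the median on 1 CD8+ array and otherwise only on CD11b+ arrays. Like Clec4a2, Clec4a4, Clec4b1 and Clec4b2, it passed the filter through the subset in which it was high. The count of called lectins thus describes the tested genes and supports nothing about the cluster.

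**Figure D1:**
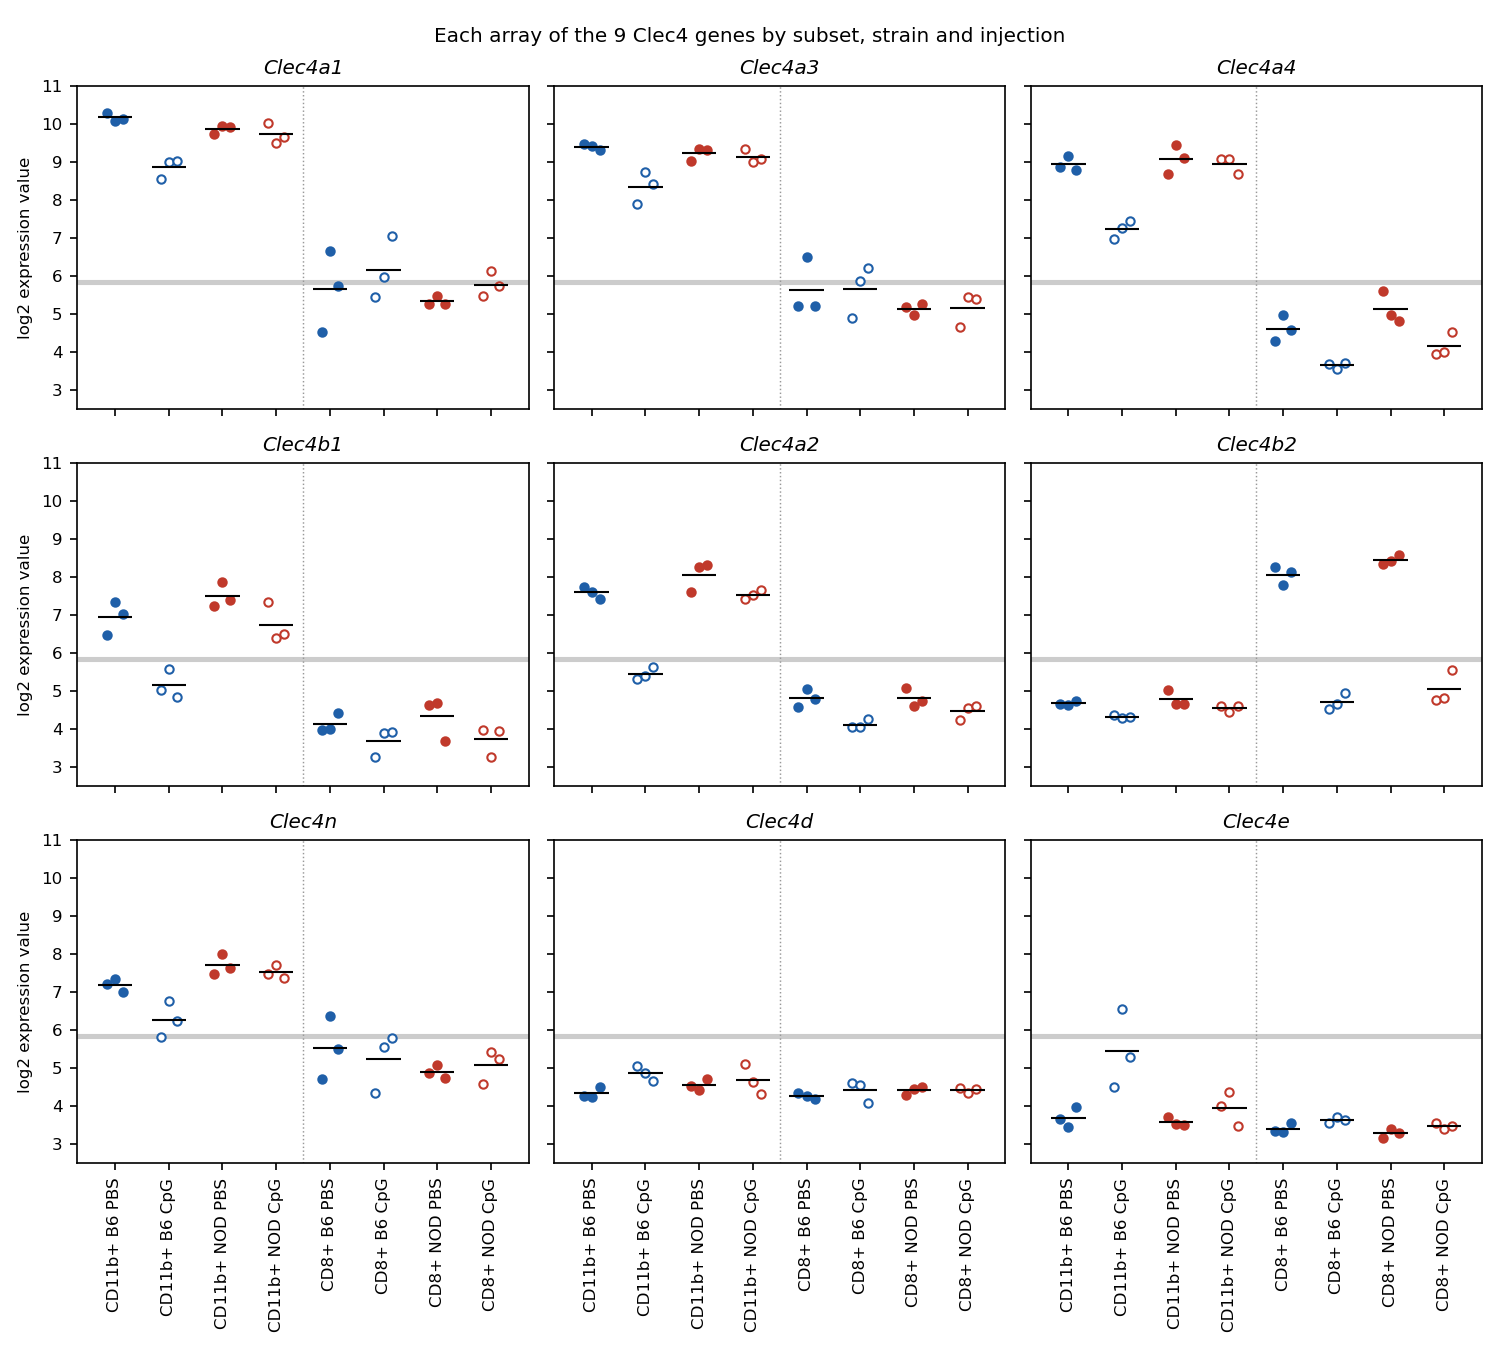
Log2 expression of each of the 9 lectins on every array, by subset and injection (x axis), with B6 in blue, NOD in red, PBS as filled and CpG as open points; black lines are group means of 3 arrays and the grey band is the range of array medians. Clec4a4 lies between 8.67 and 9.46 in the CD11b+ arrays except B6 after CpG, where it lies between 6.98 and 7.46, and Clec4b2 is between 7.78 and 8.58 in CD8+ arrays under PBS and at most 5.54 elsewhere; heights are not comparable between panels.

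Clec4a4, which encodes DCIR2, read 8.86, 9.16 and 8.80 in CD11b+ cDC and 4.28, 4.97 and 4.57 in CD8+ cDC of B6 mice under PBS. In NOD mice it read 8.67, 9.46 and 9.10 in CD11b+ cDC and 5.61, 4.97 and 4.81 in CD8+ cDC. The CD11b+ arrays stood apart from the CD8+ arrays in both strains, and the CD8+ arrays were all under the array median. The difference was -4.33 ± 0.22 in B6 (20.2-fold; adjusted p = 1.17e-12) and -3.95 ± 0.22 in NOD (15.5-fold).

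Clec4a1 and Clec4a3, the genes at the start of the cluster that are also called Dcir4 and Dcir3, were high in CD11b+ cDC and uneven among the CD8+ arrays of B6. Clec4a1 read 10.30, 10.08 and 10.14 in CD11b+ cDC and 4.53, 6.67 and 5.74 in CD8+ cDC of B6 under PBS, a difference of -4.53 ± 0.36 (23.1-fold). In NOD it read 9.75, 9.96 and 9.92 against 5.26, 5.47 and 5.27, a difference of -4.54 ± 0.36 (23.3-fold). Replicate 2 of the B6 CD8+ arrays was the highest of its group for Clec4a1, for Clec4a3 (6.49, against 5.21 at most) and for Clec4n (6.38, against 4.71 and 5.51). The same array had the highest summed level of 11 red pulp macrophage markers in its group (4417, against 1795 and 2474 on the linear scale), of the 9 CD11b+ cDC markers (1694, against 1150 and 1265) and of the 5 measured B cell markers (1327, against 741 and 750). The part of such cells in these values was not tested. Clec4a3 differed by -3.77 ± 0.30 in B6 (13.6-fold) and -4.09 ± 0.30 in NOD (17-fold).

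The other genes of the CD11b+ side differed less between the subsets. Clec4a2, the inhibitory receptor DCIR, read 7.75, 7.62 and 7.42 in CD11b+ cDC and 4.59, 5.05 and 4.79 in CD8+ cDC of B6, a difference of -2.79 ± 0.17 (6.9-fold), and in NOD the difference was -3.25 ± 0.17 (9.54-fold). Clec4b1, the activating receptor DCAR, differed by -2.82 ± 0.30 in B6 (7.08-fold) and -3.16 ± 0.30 in NOD (8.95-fold). Clec4n, which encodes Dectin-2, differed by -1.65 ± 0.34 in B6 (3.14-fold; adjusted p = 0.000827) and -2.80 ± 0.34 in NOD (6.96-fold). No lectin passed the test of whether the strain difference was unlike in the 2 subsets under PBS, where 0.882% of genes were called by limma; 1 of 7 had an unadjusted p under 0.05.

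Clec4b2, which encodes DCAR1, an activating receptor of the same cluster, had the opposite pattern. Under PBS it read 8.26, 7.78 and 8.14 in CD8+ cDC and 4.67, 4.63 and 4.74 in CD11b+ cDC of B6, and 8.35, 8.42 and 8.58 against 5.03, 4.65 and 4.67 in NOD. Every CD8+ array was above every CD11b+ array, and the CD11b+ arrays were under the array median. The difference, CD8+ minus CD11b+, was 3.38 ± 0.17 in B6 (10.4-fold; adjusted p = 1.17e-12) and 3.67 ± 0.17 in NOD (12.7-fold; adjusted p = 1.99e-13).

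The lectins of the CD11b+ side were lower after CpG in CD11b+ cDC of B6 mice. In CD11b+ cDC of B6, 6 of the 7 tested lectins fell, where 38.9% of genes were called and 23% were called lower. The median difference of the 7 was -1.32, beside -0.07 over all tested genes. Clec4a2 and Clec4b1 passed the filter through the other CD11b+ groups, among them the PBS arrays compared here, and Clec4b2 through CD8+ arrays under PBS. The count and the median thus describe only the tested genes. Median centring of the arrays raised the median of all genes by 0.122 in this comparison. The median used for centring was not the array median of the filter, which varied by less than that between arrays. Centring raised the share of called genes that were higher from 40.8% to 54.7%, and 5 of the 6 lectins still fell.

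DCIR (Clec4a2) read 7.75, 7.62 and 7.42 under PBS and 5.32, 5.39 and 5.63 after CpG in B6 CD11b+ cDC, a difference of -2.15 ± 0.17 (4.44-fold; adjusted p = 9.63e-10). DCIR2 (Clec4a4) read 8.86, 9.16 and 8.80 under PBS and 6.98, 7.26 and 7.46 after CpG, a difference of -1.71 ± 0.22 (3.27-fold; adjusted p = 1.4e-06). DCAR (Clec4b1) read 6.48, 7.34 and 7.04 under PBS and 5.04, 5.59 and 4.84 after CpG, a difference of -1.79 ± 0.30 (3.47-fold; adjusted p = 4.78e-05). For all 3 genes each CpG array was under each PBS array. After CpG, DCIR and DCAR were under the array median, whereas DCIR2 was still above it.

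Clec4a1 read 8.55, 8.99 and 9.04 after CpG, against 10.08 to 10.30 under PBS, and fell by 1.32 ± 0.36 (2.5-fold; adjusted p = 0.0056). Clec4a3 read 9.47, 9.41 and 9.32 under PBS and 7.89, 8.73 and 8.43 after CpG, and fell by 1.05 ± 0.30 (2.07-fold; adjusted p = 0.00861). The call of Clec4a3 rested in part on replicate 1 after CpG, without which the difference was -0.82 (adjusted p = 0.0655). Dectin-2 (Clec4n) read 7.21, 7.34 and 7.01 under PBS and 5.83, 6.76 and 6.23 after CpG, and fell by 0.91 ± 0.34 (1.88-fold; adjusted p = 0.0383). That call was lost after median centring (adjusted p = 0.0523), quantile normalization (0.0635) or without the filter (0.0533), and on leaving out any array compared except replicate 2 after CpG (0.0534 to 0.182, the last without replicate 1 after CpG). Clec4b2, low in these cells under PBS, read 4.38, 4.29 and 4.32 after CpG, and its difference of -0.35 ± 0.17 did not pass (adjusted p = 0.108).

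**Figure D2:**
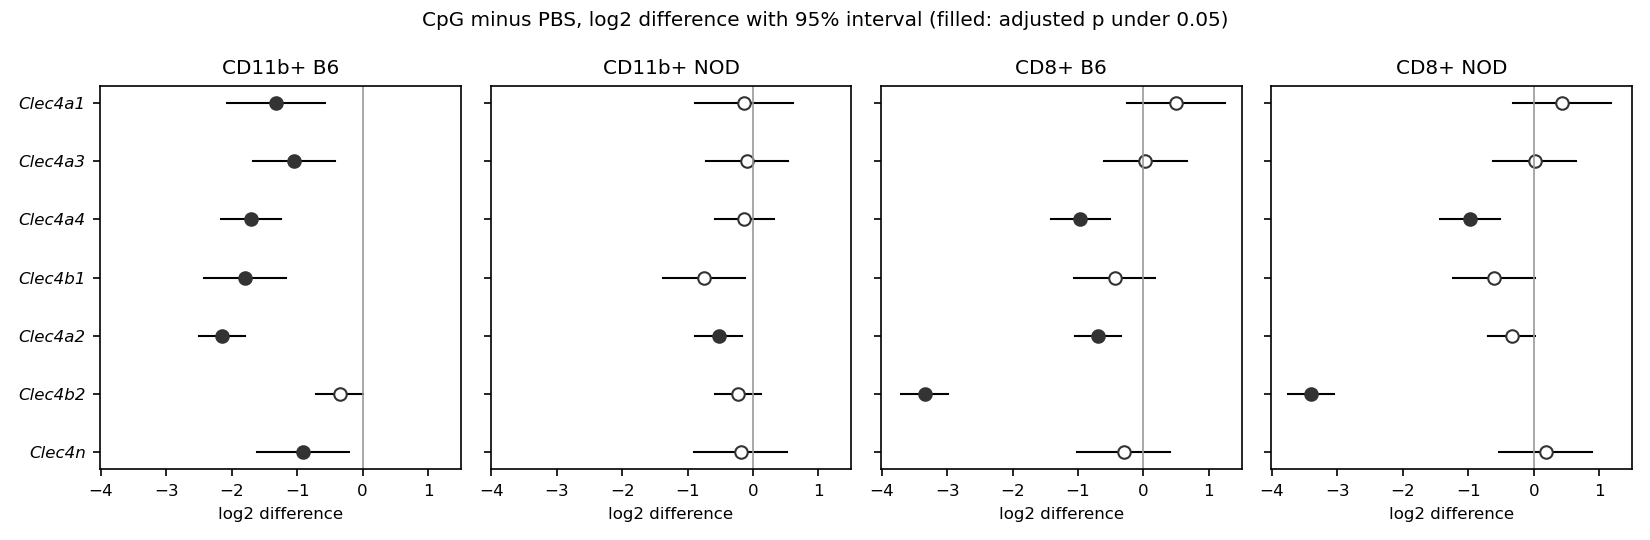
Log2 difference CpG minus PBS (x axis) of each tested lectin in the 4 combinations of subset and strain, with the 95% confidence interval from the limma fit (n = 3 arrays per group). In CD11b+ cDC the B6 values run from -2.15 (Clec4a2) to -0.35 (Clec4b2) and the NOD values from -0.75 (Clec4b1) to -0.09 (Clec4a3), and in CD8+ cDC Clec4b2 is at -3.35 in B6 and -3.41 in NOD.

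In CD11b+ cDC of NOD mice 1 of the 7 lectins was called after CpG, where 15.4% of genes were called and 5.73% were called lower. DCIR2 (Clec4a4) read 8.67, 9.46 and 9.10 under PBS and 9.07, 9.09 and 8.68 after CpG, and the groups overlapped. Its difference was -0.13 ± 0.22 (adjusted p = 0.768), with a 95% confidence interval from -0.58 to 0.32. DCIR (Clec4a2) read 7.60, 8.27 and 8.31 under PBS and 7.42, 7.53 and 7.66 after CpG and fell by 0.52 ± 0.17 (1.44-fold; adjusted p = 0.0418), although replicate 1 under PBS lay within the CpG range. That call was lost without the filter (adjusted p = 0.059), with quantile normalization (0.0504) or with only the groups compared in the fit (0.0678). It was also lost without replicate 2 (0.187) or 3 (0.207) under PBS or replicate 1 (0.165) or 2 (0.102) after CpG of this group, or replicate 2 of B6 CD11b+ cDC under PBS (0.0508).

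The remaining lectins did not pass in NOD CD11b+ cDC. DCAR (Clec4b1) read 7.23, 7.88 and 7.38 under PBS and 7.36, 6.39 and 6.50 after CpG, a difference of -0.75 ± 0.30 (adjusted p = 0.103). Replicate 1 after CpG was as high as the PBS arrays, and without it the difference was -1.05 and passed (adjusted p = 0.0331). Clec4a1, Clec4a3, Clec4n and Clec4b2 had differences of -0.14, -0.09, -0.19 and -0.23, with adjusted p of 0.433 to 0.888.

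The difference between the strains in the response of CD11b+ cDC to CpG was tested directly. It passed for DCIR (Clec4a2), at 1.63 ± 0.24 (NOD minus B6 of the CpG difference; adjusted p = 0.000277), and for DCIR2 (Clec4a4), at 1.58 ± 0.31 (adjusted p = 0.00387), 2 of 7 lectins where 4.38% of genes were called and 2.4% were called higher in NOD. Both calls held with each of the 24 arrays left out in turn. Clec4a2 and Clec4a4 passed the filter through CD11b+ arrays only, so their count describes the tested genes. The values of the other 5 did not pass: Clec4a1 1.18 ± 0.51 (adjusted p = 0.22), Clec4b1 1.05 ± 0.43 (0.186), Clec4a3 0.96 ± 0.43 (0.243), Clec4n 0.72 ± 0.48 (0.472) and Clec4b2 0.13 ± 0.24 (0.846). With only the groups compared in the fit Clec4a1 (adjusted p = 0.00161) and Clec4a3 (0.0171) passed as well, and in the fit of all groups 5 of the 7 lectins had an unadjusted p under 0.05.

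Under CpG 4 of the 7 tested lectins were called between the strains in CD11b+ cDC. All 4 were higher in NOD, where 23.2% of genes were called and 13.9% were called higher. The median difference of the 7, NOD minus B6, was 1.25, beside 0.03 over all tested genes. Clec4a2 and Clec4b1 were above the array median on the NOD arrays compared here but not on the B6 arrays, and passed the filter partly through them. The count and the median thus describe only the tested genes. DCIR (Clec4a2) was higher by 2.09 ± 0.17 (4.26-fold; adjusted p = 4.9e-09), DCIR2 (Clec4a4) by 1.71 ± 0.22 (3.28-fold; adjusted p = 3.68e-06), DCAR (Clec4b1) by 1.59 ± 0.30 (3.02-fold; adjusted p = 0.000417) and Dectin-2 (Clec4n) by 1.25 ± 0.34 (2.37-fold; adjusted p = 0.00991). The Clec4n call was lost without replicate 1 of the B6 CpG arrays (1.03; adjusted p = 0.0689). Clec4a1 (0.88 ± 0.36, adjusted p = 0.0856) and Clec4a3 (0.78 ± 0.30, adjusted p = 0.0679) did not pass in the fit of all 8 groups, and passed with only the groups compared in it (adjusted p = 0.00201 and 0.00959).

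**Figure D3:**
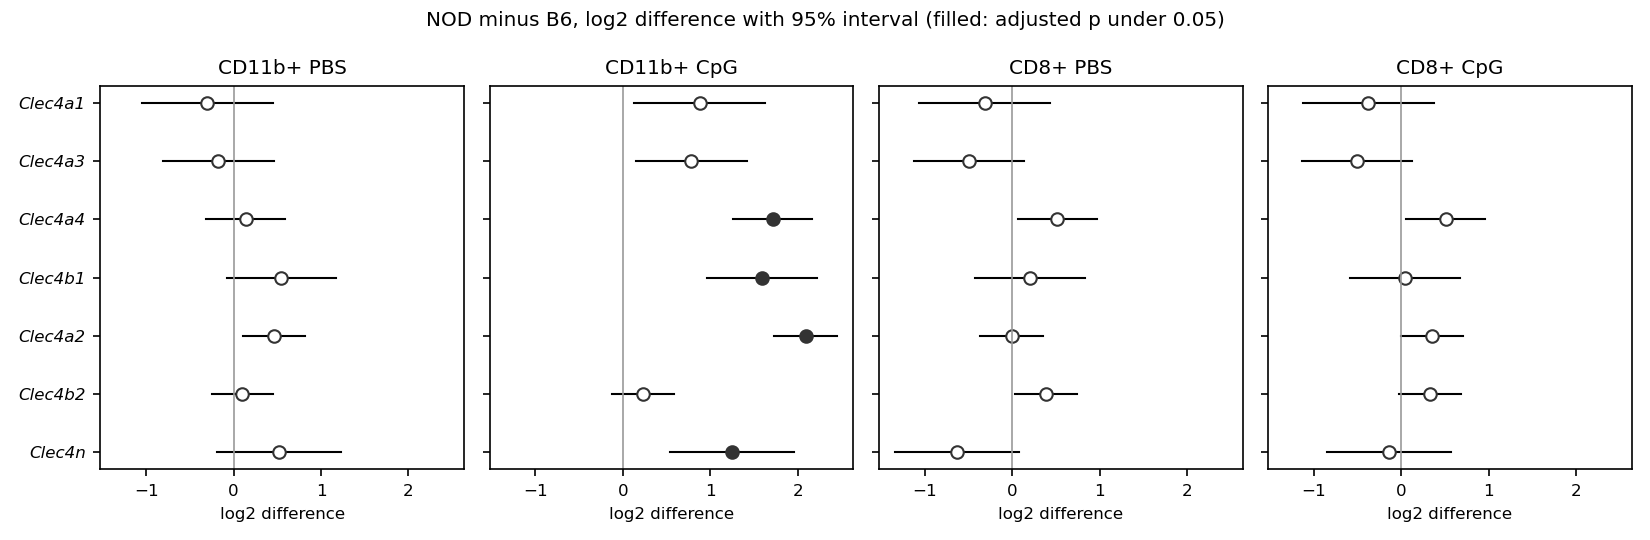
Log2 difference NOD minus B6 (x axis) of each tested lectin in the 4 combinations of subset and injection, with the 95% confidence interval from the limma fit (n = 3 arrays per group). Only CD11b+ cDC after CpG hold called values, from 1.25 (Clec4n) to 2.09 (Clec4a2).

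Fewer differences between the strains passed under PBS. In CD11b+ cDC no lectin was called by limma, where 5.59% of genes were called; 1 of 7 had an unadjusted p under 0.05, Clec4a2 (0.46 ± 0.17, adjusted p = 0.147), which passed without replicate 1 of the NOD arrays (0.69; adjusted p = 0.0149). The difference of DCIR2 (Clec4a4) there was 0.14 ± 0.22 (adjusted p = 0.889). In CD8+ cDC no lectin was called under PBS, where 3.62% of genes were called, or after CpG, where 20.2% were called, with 2 and 1 of 7 at an unadjusted p under 0.05. The 2 under PBS were DCIR2 (Clec4a4; 0.52 ± 0.22, adjusted p = 0.299) and DCAR1 (Clec4b2; 0.39 ± 0.17, adjusted p = 0.341), and the 1 after CpG was DCIR2 (0.51 ± 0.22, adjusted p = 0.106). With the subsets compared directly after CpG, the difference between strains was smaller in CD8+ than in CD11b+ cDC for Clec4a2 (-1.74 ± 0.24, adjusted p = 7.54e-05), Clec4b1 (-1.55 ± 0.43, adjusted p = 0.0334) and Clec4a4 (-1.21 ± 0.31, adjusted p = 0.0217), 3 of 7 where 5.3% of genes were called and 2.81% were called lower. These 3 lectins passed the filter through CD11b+ arrays only, so their count describes the tested genes. Clec4n (-1.39, adjusted p = 0.106), Clec4a3 (-1.29, adjusted p = 0.0898), Clec4a1 (-1.26, adjusted p = 0.191) and Clec4b2 (0.10, adjusted p = 0.902) did not pass. Of the 7 lectins 6 had an unadjusted p under 0.05, all with lower values. Of the CpG arrays, the Clec4a4 call was lost without replicate 2 of NOD CD8+, replicate 1 of B6 CD11b+ or replicate 1 or 2 of NOD CD11b+ cDC (adjusted p = 0.0521 to 0.0669). The Clec4b1 call was lost without replicate 2 or 3 of B6 CD8+, replicate 2 of NOD CD8+, replicate 1 or 3 of B6 CD11b+ or replicate 1 of NOD CD11b+ cDC (adjusted p = 0.0752 to 0.106), and with only the groups compared in the fit (0.0748).

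Markers of natural killer (NK) cells moved with the same groups. Over the 9 NK markers the summed level on the linear scale in B6 CD11b+ cDC was 983, 1534 and 790 under PBS and 14260, 21380 and 11570 after CpG. All 9 genes were called higher, beside 15.9% of all tested genes. In NOD CD11b+ cDC the NK sum was 507, 580 and 589 under PBS and 1892, 1832 and 1723 after CpG. There 6 of the 9 were called higher, beside 9.7% of all tested genes. The B6 CpG arrays were the highest, and no NOD array reached the lowest of them. Klrb1c, the gene of the NK receptor NK1.1, went from a mean of 4.75 to 8.18 in B6 and from 3.55 to 3.67 in NOD, and Ncr1, the NK receptor NKp46, from 6.35 to 9.91 and from 4.31 to 5.60. The part of NOD sequence differences within these probe sets was not tested.

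The markers of CD11b+ cDC, 9 genes, had summed levels of 5680 to 5930 under PBS and 3280 to 3810 after CpG in B6, and of 5650 to 6310 and 5240 to 5640 in NOD. The B6 CpG arrays had the lowest sums. Of the 9 genes 4 were called lower and 1 higher after CpG in B6, and 3 lower and 2 higher in NOD. Over all tested genes 23% were called lower and 15.9% higher in B6, and 5.73% lower and 9.7% higher in NOD. The 6 measured of 9 monocyte markers had summed levels of 3320 to 3610 under PBS and 918 to 1570 after CpG in B6, and of 2970 to 3330 and 1320 to 1980 in NOD. Only 2 of the 6 were above the array median on each of these arrays. Only 2 passed the filter, and both were called lower after CpG in each strain, beside the shares of 23% and 5.73% above. The part of the NK, cDC and monocyte signals in the lectin differences was not tested.

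**Figure D4:**
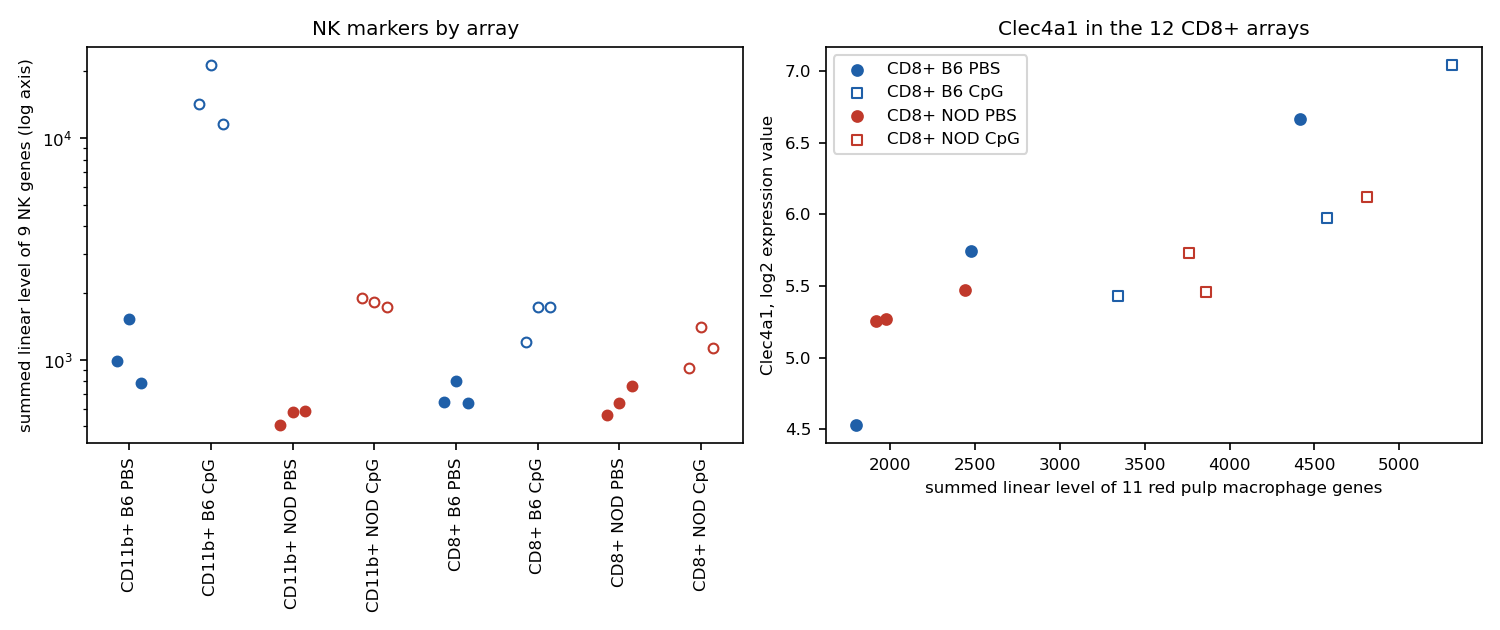
Left, summed linear level of the NK markers on every array by group (log y axis). Right, log2 value of Clec4a1 (y axis) against the summed linear level of the red pulp macrophage markers (x axis) in the CD8+ arrays, with CpG as squares. Each point is 1 array, with B6 in blue and NOD in red, PBS filled and CpG open. The NK sum of the B6 CD11b+ arrays after CpG lies between 11570 and 21380 and that of the NOD ones between 1723 and 1892.

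In CD8+ cDC of both strains DCAR1 (Clec4b2) fell to the low end of the arrays after CpG. It read 8.26, 7.78 and 8.14 under PBS and 4.54, 4.66 and 4.95 after CpG in B6, a difference of -3.35 ± 0.17 (10.2-fold; adjusted p = 3.38e-13). In NOD it read 8.35, 8.42 and 8.58 under PBS and 4.77, 4.82 and 5.54 after CpG, a difference of -3.41 ± 0.17 (10.6-fold; adjusted p = 3.71e-13). Every CpG array of both strains was under the array median, near the level of the CD11b+ arrays, and Clec4b2 passed the filter through the PBS arrays alone. The markers of CD8+ cDC as a group were also lower in these arrays, with a summed level over 11 genes of 20000 to 21700 under PBS and 8860 to 11500 after CpG in B6, and of 20500 to 22300 and 10100 to 18000 in NOD. Cd8a itself differed by 0.09 in B6 (adjusted p = 0.793) and 0.31 in NOD (adjusted p = 0.357).

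In CD8+ cDC 3 lectins fell in B6, where 57.7% of genes were called and 36.6% were called lower, and 2 fell in NOD, where 40.7% were called and 25.5% were called lower. Centring raised the median of all genes by 0.246 in B6 and 0.146 in NOD and the share of called genes that were higher from 36.6% to 59.2% and from 37.2% to 55.4%, without ending these lectin calls. Beside DCAR1 they were DCIR2 (Clec4a4), which fell by 0.96 ± 0.22 in B6 (1.95-fold; adjusted p = 0.000662) and by 0.98 ± 0.22 in NOD (1.97-fold; adjusted p = 0.00113), and DCIR (Clec4a2), which fell by 0.69 ± 0.17 in B6 (1.62-fold; adjusted p = 0.00153) and by 0.45 after centring. Both were under the array median in these cells before CpG. In NOD DCIR had a difference of -0.34 ± 0.17 (adjusted p = 0.125). None of the 7 passed the test of a strain difference in this response, where 4.02% of genes were called by limma, and none had an unadjusted p under 0.05.

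Clec4a1 in CD8+ cDC read 4.53, 6.67 and 5.74 under PBS and 5.43, 5.97 and 7.04 after CpG in B6, and the groups overlapped (0.50 ± 0.36, adjusted p = 0.243). Without replicate 2 of the PBS arrays the difference was 1.01 and passed (adjusted p = 0.014). Replicate 3 after CpG, the highest, had the highest summed red pulp macrophage level of its group (5313, against 3344 and 4577). Its summed level of CD11b+ cDC markers was also the highest (1403, against 977 and 1133), whereas the B cell sum was highest on replicate 2 (813, against 395 and 622). The part of such cells in these values was not tested. In NOD Clec4a1 differed by 0.44 ± 0.36 (adjusted p = 0.354). DCAR (Clec4b1) differed by -0.44 ± 0.30 in B6 (adjusted p = 0.219) and -0.60 ± 0.30 in NOD (adjusted p = 0.116); the latter passed without replicate 3 of the NOD PBS arrays (-0.92; adjusted p = 0.0254).

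After CpG most lectins still differed between the subsets. In B6 6 of 7 lectins were called between the subsets, where 37.4% of genes were called (24.5% lower in CD8+ cDC), and in NOD 7 of 7, where 38.6% were called (24.1% lower). Clec4a2, Clec4a4, Clec4b1, Clec4n and Clec4b2 passed the filter through the subset in which they were high under PBS. These counts therefore describe only the tested genes. DCIR2 (Clec4a4) differed by -3.59 ± 0.22 in B6 (12-fold) and by -4.80 ± 0.22 in NOD (27.8-fold). DCIR (Clec4a2) differed by -1.33 ± 0.17 in B6 (2.51-fold) and by -3.07 ± 0.17 in NOD (8.4-fold). DCAR1 (Clec4b2), higher in CD8+ cDC by more than 10-fold under PBS, was higher by 0.39 ± 0.17 in B6 (adjusted p = 0.0791) and 0.49 ± 0.17 in NOD (adjusted p = 0.0273). The NOD call was lost with quantile normalization (0.40, adjusted p = 0.0873), with only the groups compared (0.144), and without replicate 3 of the CD8+ (0.24, adjusted p = 0.216) or replicate 2 of the CD11b+ NOD CpG arrays (0.0943); the B6 value passed after median centring (0.56, adjusted p = 0.011). Dectin-2 (Clec4n) differed by -1.04 ± 0.34 in B6 (adjusted p = 0.0199), a call lost without replicate 1 of the CD8+ CpG arrays (-0.60, adjusted p = 0.188) or replicate 2 of the CD11b+ CpG arrays (-0.80, adjusted p = 0.116).

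The CpG difference itself was unlike between the subsets for 4 of the 7 lectins in B6, where 13.4% of genes were called (5.84% higher and 7.53% lower), and for 1 of 7 in NOD, where 6.8% were called (4.12% lower). The filter limits these counts in the same way, because Clec4a2, Clec4b1 and Clec4b2 passed it through the subset in which they were high. For Clec4b2 the value, CD8+ minus CD11b+, was -2.99 ± 0.24 in B6 (adjusted p = 2.88e-08) and -3.18 ± 0.24 in NOD (adjusted p = 2.6e-08). In B6 it was 1.46 ± 0.24 for Clec4a2 (adjusted p = 0.000285), 1.82 ± 0.51 for Clec4a1 (adjusted p = 0.02) and 1.35 ± 0.43 for Clec4b1 (adjusted p = 0.0376), and for these 3 the CpG difference was lower on the CD11b+ side. The Clec4a1 call was lost without replicate 1 of the CD8+ PBS arrays (0.0576), replicate 3 of the CD8+ CpG arrays (0.0519) or replicate 1 of the CD11b+ CpG arrays (0.0504). Clec4a3 (1.08 ± 0.43, adjusted p = 0.103), Clec4a4 (0.74 ± 0.31, adjusted p = 0.118) and Clec4n (0.61 ± 0.48, adjusted p = 0.452) did not pass. Clec4a3 passed after median centring (0.0364) and without replicate 2 of the CD8+ PBS (0.0115) or replicate 1 of the CD8+ CpG arrays (0.02), and Clec4a4 with only the groups compared (0.0417). The Clec4b1 call was lost with quantile normalization (adjusted p = 0.0503) and without replicate 1 or 2 of the CD8+ PBS, 2 or 3 of the CD8+ CpG, 2 or 3 of the CD11b+ PBS, or 1 or 3 of the CD11b+ CpG arrays of B6 (0.0685 to 0.104).

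Clec4d and Clec4e, the genes of MCL and Mincle at the far end of the cluster, were near the low end of the arrays. Clec4d lay between 4.09 and 5.11 on all 24 arrays, never above the array's median. Clec4e lay between 3.15 and 3.72 in all CD8+ arrays and was above the median on 1 array, replicate 2 of B6 CD11b+ cDC after CpG. In B6 CD11b+ cDC it read 3.67, 3.44 and 3.99 under PBS and 4.50, 6.56 and 5.29 after CpG, and in NOD 3.71, 3.52 and 3.51 under PBS and 3.48 to 4.38 after CpG. The B6 CpG arrays were all above the B6 PBS arrays, whereas the NOD groups overlapped. With no filter the CpG difference in B6 CD11b+ cDC was 1.75 (adjusted p = 4.68e-05) and that of NOD minus B6 after CpG was -1.50 (adjusted p = 0.000666), and without replicate 2 of the B6 CpG arrays the latter was -0.94. Replicate 2 also had the highest NK (21380) and monocyte (1566) sums of its group. Clec4d differed by 0.52 there (adjusted p = 0.0174 with no filter), reading 4.27, 4.25 and 4.51 under PBS and 5.06, 4.87 and 4.66 after CpG.

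The CD11b+ groups had the higher means for the 6 lectins of that side, whereas the order within the subsets varied from gene to gene. For Clec4a2, Clec4a4, Clec4b1 and Clec4n CD11b+ cDC of NOD under PBS had the highest mean, and for Clec4a1 and Clec4a3 CD11b+ cDC of B6 under PBS had it. CD11b+ cDC of B6 after CpG were the lowest CD11b+ group for all 6. For DCIR2 (Clec4a4) the means were 9.08 ± 0.39 (SD) in NOD under PBS, 8.95 ± 0.23 in NOD after CpG and 8.94 ± 0.20 in B6 under PBS, 3 groups whose arrays overlap, and 7.23 ± 0.24 in B6 after CpG, below them without overlap. Its CD8+ groups ran from 5.13 ± 0.42 in NOD under PBS to 3.64 ± 0.09 in B6 after CpG. For DCAR1 (Clec4b2) the order was 8.45 ± 0.12 in NOD CD8+ under PBS, 8.06 ± 0.25 in B6 CD8+ under PBS without overlap, and then 6 groups between 5.04 ± 0.43 and 4.33 ± 0.05.

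Over the 8 group means the 6 lectins of the CD11b+ side correlated with one another at Pearson r from 0.914 (Clec4a1 with Clec4a2) to 0.996 (Clec4a1 with Clec4a3), and Clec4b2 correlated with them at -0.421 to -0.678. These 8 points are dominated by the split between the subsets and come from the same arrays, so the values are a description. The tested gene outside the cluster with the pattern most like that of DCIR2 (Clec4a4) was Sirpa (r = 0.996), which encodes a receptor that marks CD11b+ cDC, followed by St8sia6 and Ubac2. For Clec4a1 the most alike were Arap2, Cntln and Gm5150 (0.990 each), for Clec4a2 Sash1 (0.996), Ccdc180 and Mmp12, and for Clec4a3 Cntln (0.997), Cd300ld and Gm5150. For Clec4b1 they were Sesn2 (0.994), Ccdc180 and Qk, and for Clec4n Pilrb1 (0.993), Pilrb2 and Cdhr3. For Clec4b2 they were Pde8a (0.988), Lmntd2 and Hepacam2. Pearson r does not measure the size of a change. From the highest to the lowest group mean Qk spanned 0.38, Lmntd2 0.54, Cntln 0.89 and Ubac2 1.00 on the log2 scale, and the other genes more, up to 5.51 for Mmp12.

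**Figure D5:**
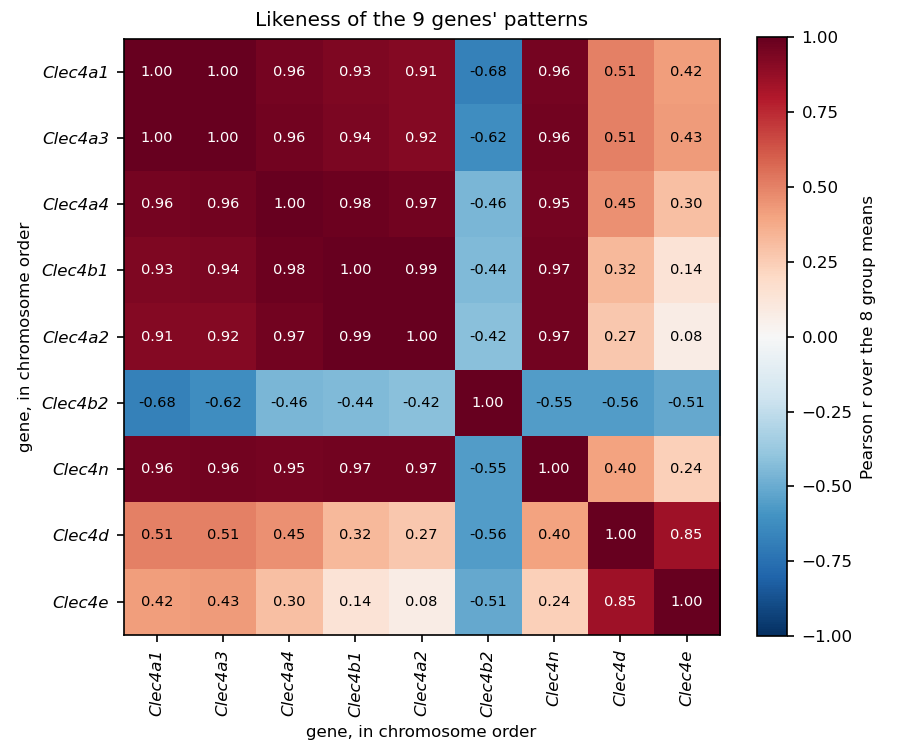
Pearson r over the 8 group means between every pair of the 9 lectins, drawn as a colour scale from -1 to 1. Clec4a1, Clec4a2, Clec4a3, Clec4a4, Clec4b1 and Clec4n form a block at 0.914 to 0.996, Clec4b2 is negative with each of them, and Clec4d with Clec4e is at 0.846.

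The phosphatases of the inhibitory arm, Ptpn6 (SHP-1), Ptpn11 (SHP-2) and Inpp5d (SHIP-1), all passed the filter. In CD11b+ cDC of B6 all 3 fell after CpG, Inpp5d by 1.08 ± 0.19, Ptpn6 by 0.39 ± 0.10 and Ptpn11 by 0.30 ± 0.12, and 2 of the 3 did so after centring. In NOD CD11b+ cDC none was called by limma and none had an unadjusted p under 0.05; Ptpn6 differed by 0.11 and Inpp5d by -0.36. After CpG all 3 were higher in NOD than in B6 CD11b+ cDC, Inpp5d by 0.79 ± 0.19, Ptpn11 by 0.47 ± 0.12 and Ptpn6 by 0.47 ± 0.10. In CD8+ cDC Inpp5d fell by 2.20 ± 0.19 in B6 and 1.24 ± 0.19 in NOD, Ptpn11 fell by 0.77 and 0.47, and Ptpn6 rose by 0.28 and 0.32. Under PBS Ptpn6 was the 1 of 3 that differed between the subsets, lower in CD8+ than in CD11b+ cDC by 0.95 in B6 and 0.82 in NOD. Over all tested genes 38.9% were called for CpG in B6 CD11b+ cDC (23% lower) and 15.4% in NOD. For NOD minus B6 in CD11b+ cDC after CpG 23.2% were called (13.9% higher). For CpG in CD8+ cDC 57.7% were called in B6 and 40.7% in NOD, and between the subsets under PBS 21.7% and 21.8%.

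Of the 14 genes of the activating arm 12 were tested. Under PBS 6 were called between the subsets in B6 and 5 in NOD, all lower in CD8+ than in CD11b+ cDC. Among them Fcer1g, the FcR gamma chain through which DCAR and Dectin-2 signal, differed by -1.46 ± 0.17 in B6 and -1.57 ± 0.17 in NOD, and Syk, the kinase it recruits, by -1.02 ± 0.17 and -0.85 ± 0.17. After CpG in B6 CD11b+ cDC 3 rose and 3 fell; Syk fell by 1.13 ± 0.17 and the adaptor Card9 by 0.49 ± 0.14, whereas Traf6, a ubiquitin ligase, and Pik3ap1, an adaptor of PI3 kinase, each rose by 0.85. In NOD CD11b+ cDC 3 were called and all rose, with Pik3ap1 at 1.06 ± 0.10 and Traf6 at 0.44 ± 0.13. After CpG 5 of the 12 were higher and 2 lower in NOD than in B6 CD11b+ cDC, with Syk at 1.66 ± 0.17 and Card9 at 0.56 ± 0.14. In CD8+ cDC 4 rose and 7 fell in B6 and 4 rose and 6 fell in NOD, and centring left 3 falling in each. Over all tested genes 57.7% and 40.7% were called in these comparisons, 38.9% and 15.4% for CpG in B6 and NOD CD11b+ cDC, 23.2% for NOD minus B6 in CD11b+ cDC after CpG, and 21.7% and 21.8% between the subsets under PBS. The medians over the 12 were -0.27 and 0.08 for CpG in B6 and NOD CD11b+ cDC, beside -0.07 and -0.04 over all tested genes.

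Of 21 C-type lectin receptors outside the cluster 13 were tested. In CD11b+ cDC after CpG 2 rose and 8 fell in B6, where 38.9% of all tested genes were called and 23% were lower, and 2 rose and 5 fell in NOD, where 15.4% were called and 5.73% were lower. Cd209a, a mouse relative of DC-SIGN, had differences of -4.98 ± 0.37 in B6 and -3.90 ± 0.37 in NOD, Clec4g of -2.47 ± 0.22 and -1.98 ± 0.22, and Ly75, the gene of DEC-205, of 2.29 ± 0.22 and 1.57 ± 0.22. All 3 were called in both strains. In CD8+ cDC 4 rose and 7 fell in B6 and 3 rose and 7 fell in NOD, beside 57.7% and 40.7% of all tested genes called, with Cd209d at -2.86 and -2.56 and Cd209a at -3.27 and -2.52. Under PBS 6 were higher and 4 lower in CD8+ than in CD11b+ cDC in each strain, among them Clec9a, a receptor for dead cells on CD8+ cDC, higher by 2.94 ± 0.17 in B6 and 3.55 ± 0.17 in NOD. Of all tested genes 21.7% were called between the subsets under PBS in B6 and 21.8% in NOD.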

How the data were processed

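Gene expression was measured on 24 arrays in 8 groups of 3, by subset, strain and injection as the sample titles give them. The authors' deposited log2 values came from RMA run in Partek (per the submitters' processing notes), with no version; RMA normalizes the arrays together, so a shift common to most genes is removed. The array model is unsettled, because the 35556 probe sets match the annotation of a whole-transcript array that is not the one in the labels. Of these, 23410 are in the platform annotation, 21789 with 1 gene symbol and 1621 with several, and 12146 have no name in it; gene IDs gave current symbols for 21698. For 999 genes with several probe sets the highest mean was used; each of the 9 lectins had 1.

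In R 4.3.3 (data.table, version 1.17.8), limma 3.58.1 fitted 8 group means (16 residual degrees of freedom, eBayes with trend); 12 comparisons of groups and 6 of differences were tested two-sided, with Benjamini-Hochberg adjustment over 11228 genes within each and a threshold of 0.05. The script was tested on simulated data. Marker sums add values on the linear scale. Promoter windows were searched in Python 3.11.15 with pandas 2.3.3 and biopython 1.88, and matplotlib 3.10.9 drew the figures. The members, lists and tests were chosen with earlier results of these data known. All 9 lectins are named. Other genes are up to 4 called and 2 uncalled per list and comparison, and the 3 most alike per lectin. Cd8a, Itgam, Itgax and the NK markers Klrb1c and Ncr1 are named as well. The number of arrays limits the precision. Alternatives numbered 32, 24 of them leaving out 1 array.

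Deviations of arrays with the same replicate number from their group means correlated over 0.1 in every pair for 8 of the 12 comparisons (0.105 to 0.544), which were all except CpG in B6 CD8+ and B6 CD11b+ cDC and NOD minus B6 in CD11b+ cDC. The labels do not explain the numbers.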

Additional observations from a re-analysis of the deposited data

Results flagged for a closer look

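The lectins below are listed because an effect of CpG or of strain differed between 2 groups in the limma fit (adjusted p under 0.05), as given in the results.

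The CpG difference in CD11b+ cDC was unlike in the strains for Clec4a2, -0.52 in NOD and -2.15 in B6 (1.63 apart), and for Clec4a4, -0.13 and -1.71 (1.58 apart). NK markers rose in the same B6 arrays, and their part in this was not tested.

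The CpG difference was unlike in the subsets of B6 for Clec4a1, 0.50 in CD8+ and -1.32 in CD11b+ cDC (1.82 apart), Clec4a2, -0.69 and -2.15 (1.46 apart), Clec4b1, -0.44 and -1.79 (1.35 apart), and Clec4b2, -3.35 and -0.35 (a value of -2.99). For Clec4b2 it was also unlike in the subsets of NOD, -3.41 and -0.23 (a value of -3.18).

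After CpG the NOD minus B6 difference was unlike in the subsets for Clec4a2, 0.35 in CD8+ and 2.09 in CD11b+ cDC (a value of -1.74), Clec4a4, 0.51 and 1.71 (-1.21), and Clec4b1, 0.04 and 1.59 (-1.55). These tests share arrays with one another.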

How the results depend on the processing

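Over the 7 tested lectins and 18 comparisons the 32 alternatives gave 3900 values with the same call, 47 that lost and 31 that gained one, and no sign of a called value turned. Clec4d and Clec4e, tested only without the filter, gained 6 calls there, and 19 of their other values moved by more than the spread between replicates. The filter at 12 of 24 arrays left fewer lectins to test and called 1 for CpG in B6 CD8+ and 1 in NOD CD8+ cDC, 0 for CpG in NOD CD11b+ cDC, 2 for NOD minus B6 in CD11b+ cDC after CpG, 4 between subsets under PBS in B6 and in NOD and 4 in NOD after CpG, 1 for the strain difference of the CpG response in CD11b+ cDC, 1 and 0 for its subset difference in B6 and NOD, and 1 for the subset difference of the strain effect after CpG. For CpG in NOD CD11b+ cDC no filter, quantile normalization and only the groups compared each called 0 in limma; 1 did so in the fit of all groups. Only the groups compared called 4, not 2 (Clec4a1 and Clec4a3 added), for the strain difference of the CpG response in CD11b+ cDC. The replicate block called 5, not 3, for the subset difference of the strain effect after CpG, adding Clec4a3 (adjusted p = 0.0378) and Clec4n (0.0141). It also brought Clec4a3 past the threshold for the subset difference of the CpG response in B6 (0.0497) and for NOD minus B6 in CD11b+ cDC after CpG (0.032), where the numbers were not shown to pair, and it ended or made no lectin call in the 8 comparisons of groups where they do. In the 4 comparisons where they were not, 5, 4, 2 and 4 of 6 arrays correlated best with their own number. Leaving out 1 array gave 0 to 1 lectins for CpG in NOD CD11b+ cDC, 0 to 1 for NOD minus B6 in CD11b+ cDC under PBS (1 without NOD replicate 1), 2 to 5 and 1 to 2 for the subset difference of the CpG response in B6 and NOD, and 1 to 5 for the subset difference of the strain effect after CpG (5 without B6 CD8+ replicate 1). Median centring moved list counts: 1 phosphatase, not 0, higher in B6 CD8+ than CD11b+ cDC under PBS, 3 activating genes, not 7 and 6, lower after CpG in B6 and NOD CD8+ cDC, 1, not 0, higher between subsets in NOD, and 1 other lectin, not 2, higher in NOD than B6 CD11b+ cDC after CpG. Called genes moved by over 1.5 times with only the groups compared: 2584 against 4567 (CpG, NOD CD8+), 390 against 2270 (NOD minus B6, CD8+ after CpG), 2554 against 4335 (subsets, NOD after CpG), and for the strain by CpG test 164 against 451 (CD8+) and 945 against 492 (CD11b+), where the block gave 728 and 766. Subset by CpG in NOD gave 303 against 764, and subset by strain 181 against 99 (51 with the 12-array filter) under PBS and 266 against 595 after CpG. Leaving out 1 array gave 1139 to 2206 genes for CpG in NOD CD11b+ cDC, 1111 to 3945 for NOD minus B6 in CD8+ cDC after CpG, 231 to 2071 and 297 to 849 for strain by CpG in CD8+ and CD11b+ cDC, 479 to 1676 for subset by CpG in NOD, 271 to 524 for NOD minus B6 in CD8+ cDC under PBS, and 63 to 124 and 419 to 1057 for subset by strain under PBS and after CpG. The number of arrays and the low signal of Clec4d and Clec4e limit what could be tested.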
